A study of Mus musculus with 18 samples.

Results

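The genes described here are 9 genes of alarm and acute-phase proteins in mouse skin: S100a8, S100a9, Saa3, Lcn2, Chil1, Serpina3n, Stfa3, Clec4d and 2610528A11Rik. They were taken as every probe set whose platform annotation gives one of these symbols, which found 9 of 45037 probe sets, 1 for each gene, among 18193 named genes. They were chosen by their higher signal in the transgenic mice, with the values of these arrays already known, so that every difference between the genotypes is given for them as a description with no test. RNA of epidermis, dermis and whole skin was hybridised to 18 Affymetrix arrays, 3 for each of 6 groups. The transgenic groups were epidermis, dermis and whole skin of K14NICDER mice, in which the promoter of keratin 14, active in basal keratinocytes, drives an intracellular Notch domain that a hormone-binding part keeps off until 4-hydroxytamoxifen (4OHT) is given. The wild-type groups were the same tissues of mice without the transgene. All mice of both genotypes were females of a C57Bl6xCBA F1 background, 7 weeks old at the start, and all received 4OHT for 14 days, wild types included. The labels do not say how many animals gave a sample or whether the tissues came from the same animals, so the spread between arrays may be in part technical.

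S100a8 and S100a9 are small calcium-binding proteins that pair to form calprotectin, which neutrophils store in large amounts and which keratinocytes make when the epidermis is wounded or inflamed. Outside the cell the pair withholds zinc and manganese from microbes and signals through Toll-like receptor 4. Acute-phase proteins such as the serum amyloids are secreted in response to interleukin-1, interleukin-6 and related cytokines, by the liver into blood and by other cells within an injured tissue. Lcn2 binds bacterial iron carriers, Chil1 is a chitinase-like protein that binds chitin without cutting it, Serpina3n blocks serine proteases, Stfa3 is a stefin that blocks cysteine cathepsins, Clec4d is a C-type lectin receptor of myeloid cells, and 2610528A11Rik, also named Gpr15l in the RefSeq table, encodes a secreted ligand of the receptor Gpr15.

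Because the 9 genes stood high in the same arrays, the 250 bases before each annotated start were read from RefSeq sequences of the assembly GRCm38.p6, in which all 9 genes matched. An annotated start can lie inside the full span of its gene. The window of Saa3 lay within the gene's span, chr7:46711998-46719615. That of Serpina3n, chr12:104406458-104406707, ran past the first base of the gene's span, 104406646. Windows of 5 genes are shown, those of the S100 pair, of Saa3 and Lcn2 as acute-phase genes, and of Chil1. Capitals mark matches to the motifs of C/EBP, NF-kappaB and RBPJ, the DNA-binding partner of Notch, and to the TATA box. S100a8 lies on the plus strand at chr3:90668821-90669070, S100a9 on the minus strand at chr3:90695722-90695971, Saa3 on the minus strand at chr7:46715677-46715926, Lcn2 on the minus strand at chr2:32387740-32387989 and Chil1 on the plus strand at chr1:134181906-134182155.
S100a8: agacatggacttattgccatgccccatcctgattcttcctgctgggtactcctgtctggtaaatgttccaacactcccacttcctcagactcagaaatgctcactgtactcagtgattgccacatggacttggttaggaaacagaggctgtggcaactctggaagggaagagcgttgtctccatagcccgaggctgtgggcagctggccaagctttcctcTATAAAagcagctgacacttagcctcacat
S100a9: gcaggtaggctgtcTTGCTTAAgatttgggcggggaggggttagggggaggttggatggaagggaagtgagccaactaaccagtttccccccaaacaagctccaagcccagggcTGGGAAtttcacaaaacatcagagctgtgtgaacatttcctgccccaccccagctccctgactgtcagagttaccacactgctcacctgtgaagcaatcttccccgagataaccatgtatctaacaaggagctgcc
Saa3: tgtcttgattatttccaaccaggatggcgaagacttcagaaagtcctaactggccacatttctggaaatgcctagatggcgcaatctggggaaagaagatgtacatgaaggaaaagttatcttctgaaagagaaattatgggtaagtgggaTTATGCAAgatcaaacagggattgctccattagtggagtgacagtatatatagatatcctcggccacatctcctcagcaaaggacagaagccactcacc
Lcn2: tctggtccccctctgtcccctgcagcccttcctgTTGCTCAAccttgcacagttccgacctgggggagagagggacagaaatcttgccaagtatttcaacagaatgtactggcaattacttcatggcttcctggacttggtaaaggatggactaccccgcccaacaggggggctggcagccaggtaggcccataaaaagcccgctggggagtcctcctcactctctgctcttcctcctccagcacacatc
Chil1: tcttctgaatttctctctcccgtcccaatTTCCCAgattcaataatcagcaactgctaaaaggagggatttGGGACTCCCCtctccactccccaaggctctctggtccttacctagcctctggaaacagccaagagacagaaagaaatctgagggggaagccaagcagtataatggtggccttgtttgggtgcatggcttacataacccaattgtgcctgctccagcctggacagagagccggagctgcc

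A C/EBP match (TTGCNNAA, searched on both strands, as were all motifs) was found before 3 of the 9 genes: between 216 and 209 bases before the start of Lcn2, between 236 and 229 bases before that of S100a9 and, on the reverse strand, between 99 and 92 bases before that of Saa3. Over all 32851 windows of 27025 genes, 9.56% held one. An NF-kappaB match lay between 179 and 170 bases before Chil1, and 7.25% of all windows held one. The RBPJ motif (TGGGAA) was found before Chil1, S100a9 and Serpina3n, against 21.6% of all windows. The TATA box (TATAAA) was found before S100a8 and 2610528A11Rik, against 12.4% of all windows. Neither the STAT motif (TTCNNNGAA, in 7.02% of all windows) nor the AP-1 motif (TGANTCA, in 6.75%) was found before any of the 9, and no match overlapped another. These are matches of letters within 250 bases and say nothing of binding.

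Values are log2 MAS5 signals as deposited, each array having been scaled to a common mean. On a log2 scale MAS5 values of weakly hybridised probe sets scatter widely. A value is called dim here where it lies below the 30th percentile of its own array, a limit between 2.78 and 3.90. The signal of 1 probe set is never set against that of another. In bulk tissue, more cells of a type and more RNA per cell cannot be told apart. The labelled layers were checked in the wild types, in which 8 of 9 tested fibroblast markers and 8 of 9 endothelial markers were higher in dermis, and 8 of 10 markers of suprabasal keratinocytes were higher in epidermis (limma, adjusted p under 0.05). Of 9 markers of basal keratinocytes only 2 were higher in epidermis. Of all tested genes, 12.6% were higher in dermis and 6.07% lower. In both genotypes the separation was partial: the 10 suprabasal markers summed to linear signals of 6877 to 12016 on the transgenic dermis arrays and 12299 to 20256 on the wild-type dermis arrays. On the epidermis arrays they summed to 31592 to 37996 in transgenic mice and 30039 to 48382 in wild types. The 9 basal markers summed to 14098 to 16628 in wild-type dermis, against 17679 to 23278 in wild-type epidermis.

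**Figure D1:**
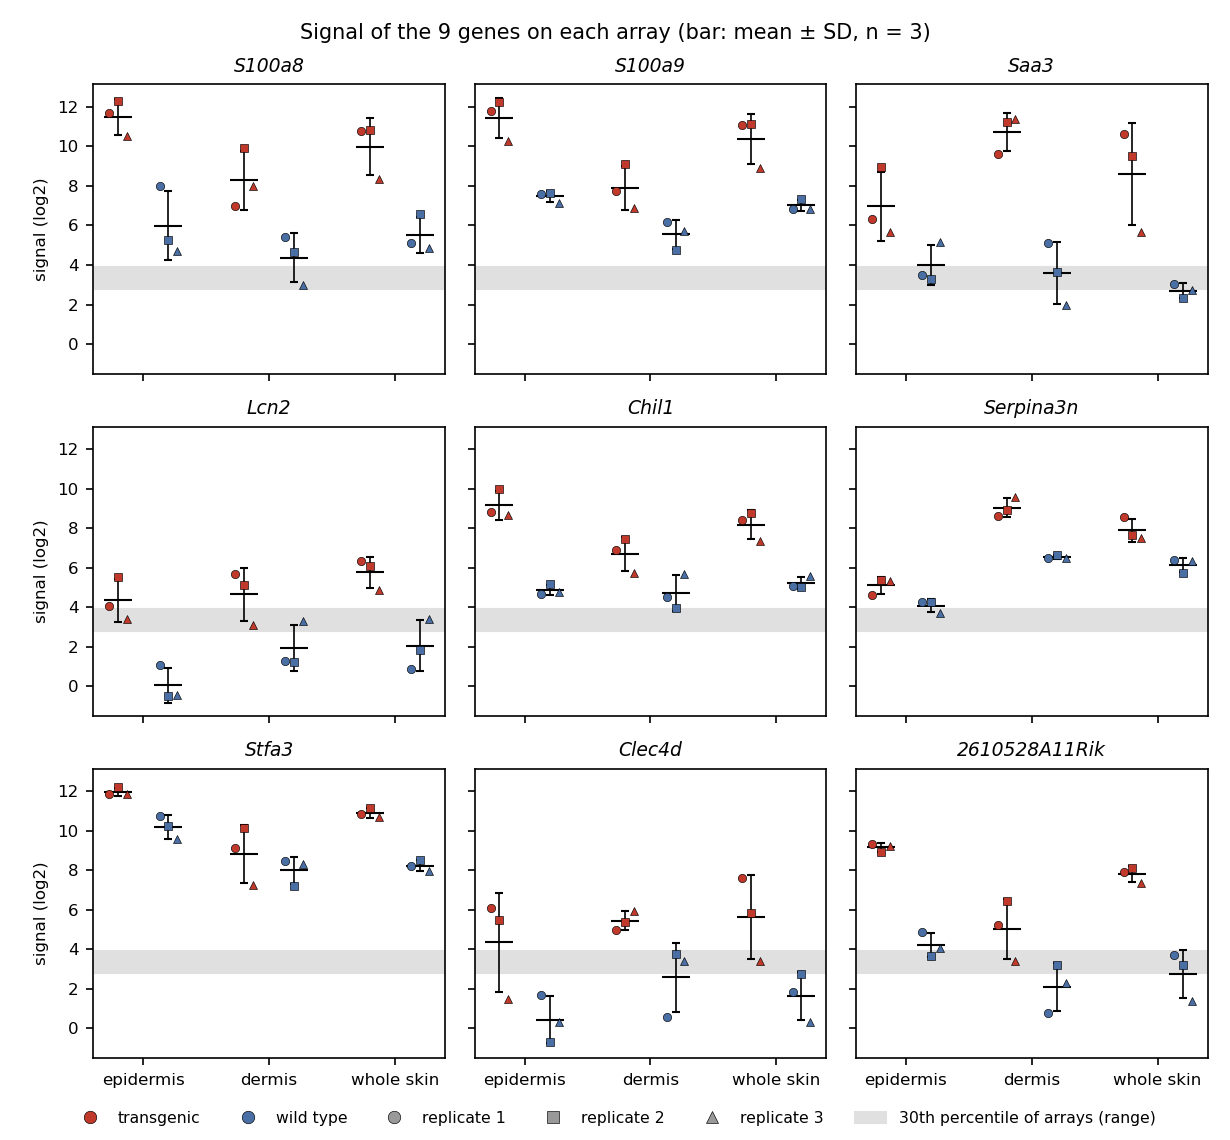
Log2 signal of each gene (vertical axis) on each of the 18 arrays, by tissue, with transgenic arrays in red to the left of wild-type arrays in blue. Symbols give the replicate number, the bar is the mean ± SD of 3 arrays, and the grey band is the range of the arrays' 30th percentiles, 2.78 to 3.90. All 3 transgenic arrays lie above all 3 wild-type arrays for 8 of 9 genes in epidermis, 7 of 9 in dermis and all 9 in whole skin.

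S100a8, the smaller subunit of calprotectin, had epidermal signals of 11.70, 12.28 and 10.50 on the transgenic arrays, against 7.99, 5.26 and 4.72 on the wild-type arrays. That is a difference of 5.51 ± 1.14 on the log2 scale (SE, n = 3 per group), or 45.4-fold. Its dermal signals were 6.98, 9.90 and 7.98 in transgenic mice, against 5.43, 4.67 and 3.01 in wild types, a difference of 3.91 ± 1.12. The groups did not overlap in either layer, and 1 of the wild-type dermis values was dim. In whole skin the transgenic arrays read 10.77, 10.85 and 8.34, against 5.12, 6.58 and 4.85 on the wild-type arrays, a difference of 4.47 ± 0.98. The order of the 6 group means ran from transgenic epidermis through transgenic whole skin and transgenic dermis to the wild types, but every neighbouring pair of groups in that order overlapped.

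S100a9, the partner of S100a8 and its neighbour on chromosome 3, was not dim on any array. Its transgenic epidermis arrays read 11.77, 12.25 and 10.29, and its wild-type epidermis arrays 7.61, 7.64 and 7.14, a difference of 3.97 ± 0.61, or 15.7-fold. The dermis arrays read 7.74, 9.09 and 6.87 in transgenic mice, against 6.18, 4.76 and 5.71 in wild types, a difference of 2.35 ± 0.77. All 3 transgenic arrays lay above the wild types in both layers, and the wild-type epidermis arrays spread over only 0.50. Whole skin gave 11.06, 11.11 and 8.91 in transgenic mice, against 6.85, 7.33 and 6.85 in wild types, a difference of 3.35 ± 0.74. Wild-type dermis was lowest of the 6 groups and stood apart from the next, wild-type whole skin, and the other neighbours in the order overlapped. Over the 18 arrays S100a8 and S100a9 correlated at r = 0.93, and their deviations from the group means at 0.66.

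Lcn2, lipocalin 2, which starves bacteria of iron, was dim on 8 of the 18 arrays. Its mean of 3.13 lay just under the limit of 3.15 above which genes were tested, and it is therefore described and never tested. In epidermis its signals were 4.08, 5.53 and 3.42 on the transgenic arrays, against 1.06, −0.51 and −0.43 on the wild-type arrays, all 3 of which were dim. The difference was 4.30 ± 0.80 with no overlap. In dermis the signals were 5.68, 5.14 and 3.10 in transgenic mice, against 1.28, 1.22 and 3.30 in wild types, a difference of 2.71 ± 1.04, and the lowest transgenic array lay below the highest wild-type array. Whole skin showed the highest level, at 6.32, 6.09 and 4.87 in transgenic mice, against 0.86, 1.86 and 3.42 in wild types, a difference of 3.71 ± 0.87 with no overlap. With 16 added before taking log2, which damps dim values, its differences were 1.15 in epidermis, 1.09 in dermis and, for whole skin, 1.76.

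2610528A11Rik, the gene of the Gpr15 ligand, had closely grouped values in transgenic epidermis. They were 9.35, 8.90 and 9.24, against 4.88, 3.67 and 4.07 in wild-type epidermis, a difference of 4.96 ± 0.38, or 31.1-fold. The lowest transgenic array lay 4.02 above the highest wild-type array, the widest such gap of the 9 genes in epidermis. In whole skin the values were 7.93, 8.13 and 7.36 on the transgenic arrays, against 3.70, 3.19 and 1.39 on the wild-type arrays, a difference of 5.04 ± 0.74. In dermis they were 5.25, 6.46 and 3.42 in transgenic mice, against 0.80, 3.21 and 2.28 in wild types, a difference of 2.95 ± 1.13. All 3 wild-type dermis values and 1 transgenic one were dim, the groups were only 0.21 apart there, and with 16 added before log2 the dermal difference was 1.34. Transgenic epidermis stood apart from transgenic whole skin, and transgenic whole skin from transgenic dermis, while transgenic dermis and the 3 wild-type groups overlapped with their neighbours. Its receptor gene, Gpr15, was dim on all 3 arrays of each of the 6 groups.

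Chil1, the chitinase-like protein, showed little spread in wild-type epidermis and whole skin. In epidermis its signals were 8.79, 9.97 and 8.68 on the transgenic arrays, against 4.67, 5.17 and 4.78 on the wild-type arrays, a difference of 4.27 ± 0.44, or 19.3-fold. In whole skin they were 8.40, 8.76 and 7.36 in transgenic mice, against 5.07, 5.01 and 5.58 in wild types, a difference of 2.96 ± 0.46. Both were far wider than the spread within groups. In dermis the transgenic arrays read 6.87, 7.42 and 5.74 and the wild-type arrays 4.51, 3.94 and 5.70, a difference of 1.96 ± 0.72, and the groups were only 0.05 apart. The 3 transgenic groups stood above the 3 wild-type groups, and within each genotype neighbouring tissues overlapped. Over the 18 arrays Chil1 and S100a9 had the highest correlation of any pair of the 9 genes, r = 0.94, and their deviations from the group means correlated at 0.74.

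Stfa3, the stefin, was not dim on any array. Its signals in epidermis were 11.86, 12.20 and 11.83 on the transgenic arrays, against 10.76, 10.23 and 9.56 on the wild-type arrays, a difference of 1.78 ± 0.37, or 3.44-fold. In whole skin they were 10.84, 11.16 and 10.67, against 8.22, 8.53 and 7.97 in wild types, a difference of 2.65 ± 0.21, the smallest error of any gene and tissue here. Neither pair of groups overlapped. The dermis arrays read 9.14, 10.11 and 7.23 in transgenic mice and 8.46, 7.22 and 8.30 in wild types, a difference of 0.84 ± 0.93, with overlap. Stfa3 belongs to a family of near-identical stefin genes, and how far its probe set also reads the others is uncertain.

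**Figure D2:**
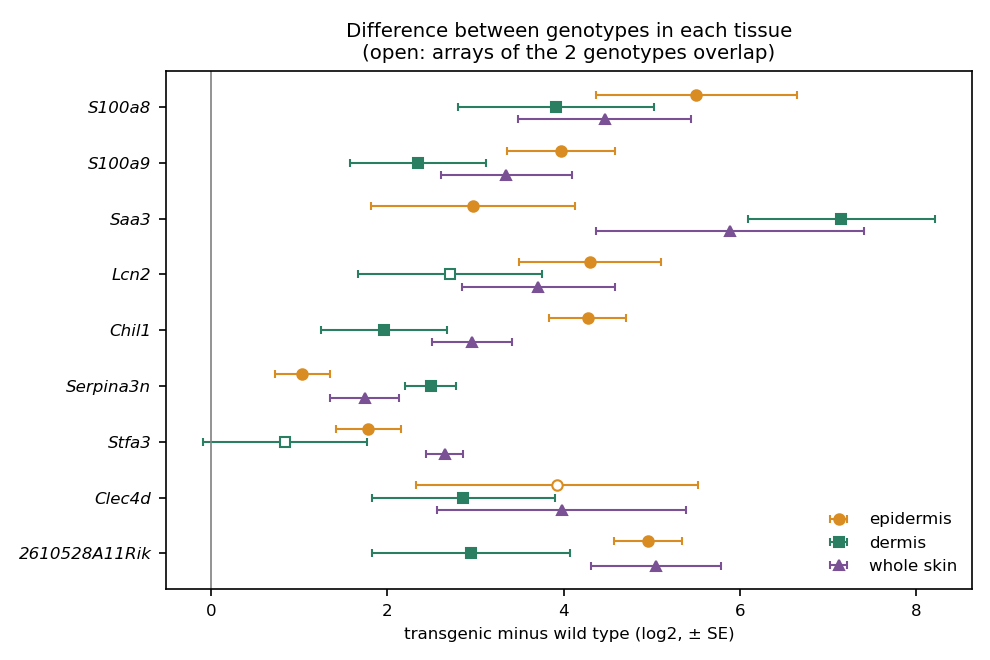
Transgenic minus wild-type mean log2 signal (horizontal axis), ± SE from 3 arrays per group, for each gene in epidermis, dermis and whole skin. Open symbols mark the 3 differences with overlapping arrays, Lcn2 and Stfa3 in dermis and Clec4d in epidermis. Saa3 and Serpina3n have their largest difference in dermis, at 7.15 and 2.49.

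Saa3, the serum amyloid that mice make outside the liver, in macrophages, fat and stroma among others, had the largest differences of the 9 in dermis and whole skin. In dermis its signals were 9.63, 11.21 and 11.38 on the transgenic arrays, against 5.13, 3.65 and 1.99 on the wild-type arrays, a difference of 7.15 ± 1.07, or 142-fold. The lowest transgenic dermis array lay 4.50 above the highest wild-type one. In whole skin they were 10.61, 9.52 and 5.66 in transgenic mice, against 3.06, 2.35 and 2.72 in wild types, all 3 of the last dim, a difference of 5.89 ± 1.52. In epidermis they were 6.32, 8.93 and 5.66, against 3.51, 3.32 and 5.17 in wild types, a difference of 2.97 ± 1.16 with a gap of 0.49 between the groups. The 3 transgenic groups stood above the 3 wild-type groups, with transgenic dermis first, and neighbours within a genotype overlapped. With 16 added before log2 the dermal difference was 5.81.

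Serpina3n, an acute-phase inhibitor of serine proteases that in mice blocks granzyme B, had small errors. Its differences in epidermis and whole skin, but not that in dermis, were the smallest of the 9. Its dermal signals were 8.61, 8.93 and 9.56 on the transgenic arrays, against 6.48, 6.66 and 6.47 on the wild-type arrays, a difference of 2.49 ± 0.29, or 5.63-fold. Whole skin gave 8.54, 7.65 and 7.48 in transgenic mice, against 6.38, 5.72 and 6.33 in wild types, a difference of 1.74 ± 0.39. In epidermis the values were 4.60, 5.38 and 5.31 in transgenic mice, against 4.24, 4.27 and 3.68 in wild types, a difference of 1.03 ± 0.31, which was 1.56 after quantile normalization and 0.62 with 16 added before log2. The genotypes did not overlap in any tissue. It was the only 1 of the 9 whose 6 groups all stood apart from their neighbours, with means of 9.03 in transgenic dermis, 7.89 in transgenic whole skin, 6.54 in wild-type dermis, 6.14 in wild-type whole skin, 5.10 in transgenic epidermis and 4.06 in wild-type epidermis. Transgenic epidermis thus lay below wild-type dermis.

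Clec4d, a receptor that pairs with the Fc receptor gamma chain on myeloid cells, was dim on 8 of the 18 arrays. In dermis its signals were 4.98, 5.39 and 5.95 on the transgenic arrays, against 0.59, 3.75 and 3.41 on the wild-type arrays, a difference of 2.86 ± 1.04 with no overlap. In whole skin they were 7.62, 5.85 and 3.39 in transgenic mice, against 1.86, 2.73 and 0.33 in wild types, a difference of 3.98 ± 1.41, also with no overlap. In epidermis they were 6.11, 5.5 and 1.5, against 1.67, −0.68 and 0.34 in wild types. There the third transgenic array was dim and lay within the wild types, although the difference of means was 3.93 ± 1.60. All wild-type epidermis and whole skin values of Clec4d were dim, and with 16 added before log2 its differences were 1.38 in epidermis, 1.32 in dermis and, for whole skin, 1.92. The probe sets of Clec4d and S100a8 carry the suffix that Affymetrix gives to sets that may read more than 1 transcript.

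Counted together, all 3 transgenic arrays lay above all 3 wild-type arrays for 8 of the 9 genes in epidermis, where 8.48% of all 18193 genes did so. In dermis 7 of 9 did, against 4.22% of all genes, and in whole skin 9 of 9, against 10.1%. The 9 genes had a median difference of 3.97 in epidermis, against −0.10 over all tested genes. In dermis the medians were 2.71 and −0.05, and in whole skin 3.71 and −0.01. The choice of the 9 fixes these directions, so the counts describe the set and support nothing.

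In transgenic mice the 9 genes were split between the layers. The signal in dermis lay below that in epidermis on all 3 arrays for 5 of the 9, S100a8, S100a9, Chil1, Stfa3 and 2610528A11Rik, against 12.8% of all genes. It lay above for 2, Saa3 and Serpina3n, against 17.5% of all genes. The 9 were chosen with the values of these transgenic arrays known, so both counts describe the set and support nothing. As dermis minus epidermis, the transgenic differences were −4.12 ± 0.89 for 2610528A11Rik, −3.54 ± 0.88 for S100a9, −3.21 ± 1.01 for S100a8, −3.14 ± 0.85 for Stfa3 and −2.46 ± 0.64 for Chil1 (SE, n = 3 per group). Those of Serpina3n and Saa3 were 3.93 ± 0.38 and 3.77 ± 1.15. Lcn2, at 0.30 ± 1.0, and Clec4d, at 1.07 ± 1.47, overlapped between the layers. The separation was partial, with suprabasal sums of 6877 to 12016 on the transgenic dermis arrays and 31592 to 37996 on the transgenic epidermis arrays. How far remaining epidermis in the dermis samples enters the dermal values and dermal genotype differences of the 9 genes was not tested.

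Wild-type skin, which did not enter the choice of the genes through a comparison of its layers, allowed a test. The filter on low signal took the mean over all 18 arrays, and 2610528A11Rik and Clec4d passed it only through their transgenic arrays, with means of 3.02 and 1.55 over the 9 wild-type arrays against the limit of 3.15. Those 2 and Lcn2 are therefore described without a test. The other 6 were tested in limma with Benjamini-Hochberg adjustment over all 13739 tested genes, of which 18.6% differed, 12.6% higher and 6.07% lower in dermis. Serpina3n, Stfa3 and S100a9 passed. Serpina3n was higher in dermis by 2.47 ± 0.34 (adjusted p = 0.000356). Stfa3 was lower in dermis, at −2.19 ± 0.57 (adjusted p = 0.0169), and S100a9 at −1.92 ± 0.56 (adjusted p = 0.0306). For Serpina3n all 3 wild-type dermis arrays lay above all 3 wild-type epidermis arrays, as they did for 18.3% of all genes, and for S100a9 and Stfa3 they lay below, as for 16.3%. The call of S100a9 was lost without any 1 of wild-type dermis replicate 2 or 3 or wild-type epidermis replicate 1, 2 or 3 (adjusted p between 0.0572 and 0.122 in those limma fits), and that of Stfa3 without wild-type dermis replicate 2 or wild-type epidermis replicate 1 (adjusted p = 0.0785 and 0.0759).

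S100a8, Saa3 and Chil1 did not pass in wild types. S100a8 stood at −1.62 ± 0.88 (limma adjusted p = 0.216). Saa3, at −0.41 ± 0.88 (adjusted p = 0.771), and Chil1, at −0.16 ± 0.51 (adjusted p = 0.851), overlapped between the layers. In transgenic mice the layers of Saa3 and Chil1 lay apart, with dermis above for Saa3 and below for Chil1. Whether the genotype difference itself depends on the layer was not tested for the 9 genes, since the genotype difference chose them, and 0.0218% of all tested genes passed such a test. Of the 3 genes without a test, 2610528A11Rik was lower on all 3 wild-type dermis arrays than on the wild-type epidermis arrays, at −2.11 ± 0.79, and all 3 dermis values were dim. Clec4d, at 2.14 ± 1.21, overlapped between the layers. Lcn2 was higher on all 3 wild-type dermis arrays than on the wild-type epidermis arrays, by 1.89 ± 0.85, but most of these values were dim.

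**Figure D3:**
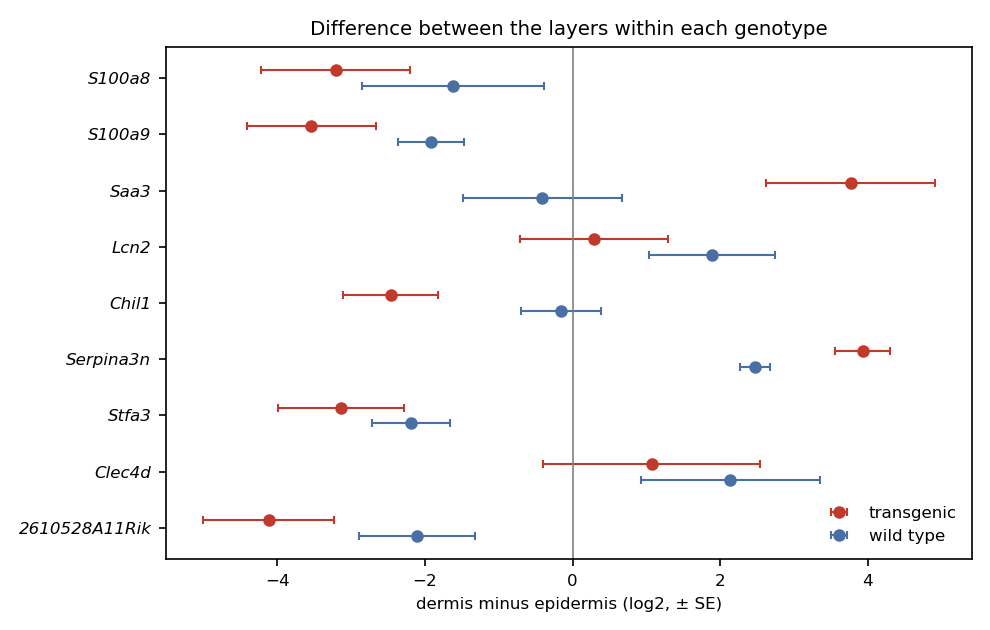
Difference of mean log2 signal, dermis minus epidermis (horizontal axis), ± SE computed from the 3 arrays of each layer, for transgenic mice in red above wild types in blue. Of the 9 genes, 5 sit below 0 and Saa3 and Serpina3n above 0 in transgenic mice, with Saa3 at 3.77 against −0.41 in wild types.

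The transgenic arrays of a tissue differed among themselves. In whole skin, replicate 3 was the lowest transgenic array for 9 of 9 genes, and in epidermis for 7 of 9. In dermis replicate 3 was lowest for 5 and replicate 1 for 4. Averaged over the 9 genes after each was set to mean 0 and SD 1 over the 18 arrays, transgenic whole skin scored 1.21, 1.08 and 0.41, transgenic epidermis 0.86, 1.17 and 0.50 and transgenic dermis 0.40, 0.80 and 0.15 for replicates 1 to 3. Every wild-type array lay between −0.85 and −0.48. The range among the 3 transgenic whole skin arrays was 4.95 for Saa3 and 4.23 for Clec4d, against 0.49 for Stfa3 and 0.76 for 2610528A11Rik. Over all tested genes, transgenic whole skin and transgenic epidermis arrays of the same number deviated from their group means in the same direction, with correlations of 0.25, 0.19 and 0.23. Arrays of different number correlated between −0.20 and −0.03. Deviations within a group of 3 sum to 0, so these values are not independent of those for the same number. For transgenic dermis the third pair did not follow: the correlations were 0.40, 0.18 and −0.04 with transgenic epidermis, and for whole skin with dermis 0.15, 0.16 and −0.05. Transgenic dermis replicate 3 and transgenic epidermis replicate 2, of different number, correlated at 0.25. The labels do not say whether those arrays share an animal.

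**Figure D4:**
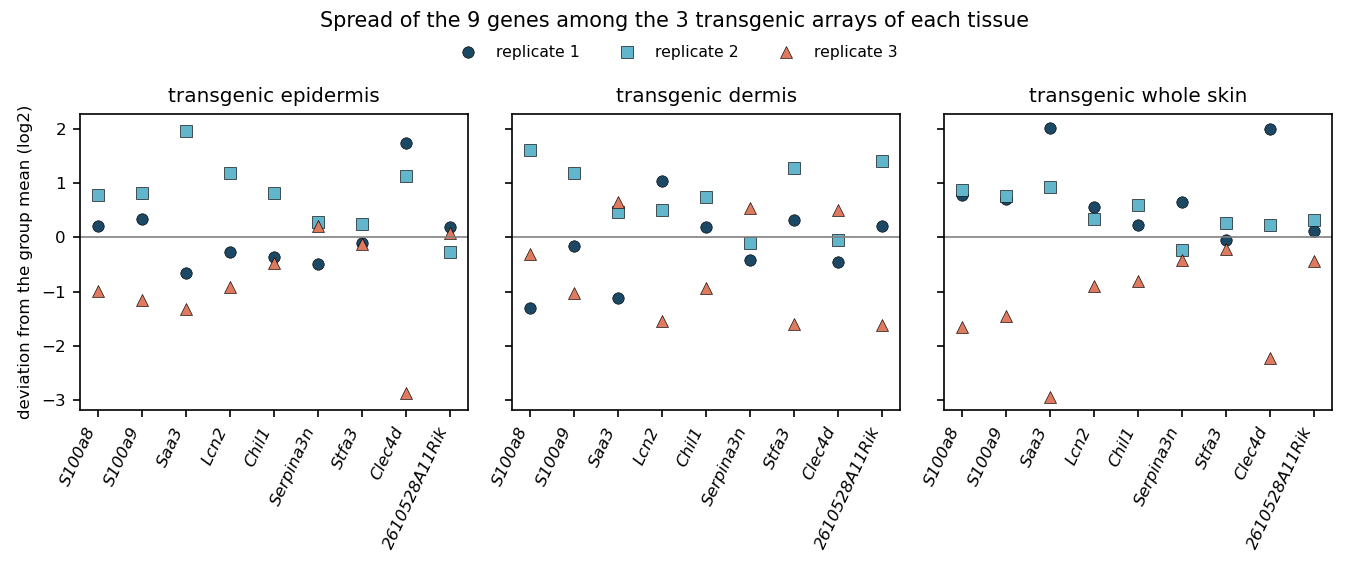
Deviation of each transgenic array from the mean of its group (log2, vertical axis) for the 9 genes in epidermis, dermis and whole skin, with a symbol for each replicate number. Replicate 3 is the lowest array for all 9 genes in whole skin and for 7 of 9 in epidermis, whereas in dermis it is above the mean for Saa3, Serpina3n and Clec4d.

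Across the 18 arrays the 36 pairs among the 9 genes correlated between −0.30, for Serpina3n and Stfa3, and 0.94, with a median of 0.65, and 28 pairs exceeded 0.5. The arrays share tissue and genotype. After the group means were removed the median was 0.28, and the highest was 0.77, for Lcn2 and Chil1. The genes outside the 9 whose pattern was most like the mean of the 9 over the 18 arrays were Gjb2 (r = 0.94), Tnc (0.92), Klk13 (0.88), AU018091 (0.88), Krt73 (0.87), Fhl2 (0.87), Krt6a (0.87) and Aldh1a3 (0.86). With 16 added before log2, 4 of these 8 stayed among the first 8. These genes were picked for following genes that were themselves chosen for being higher in transgenic mice, so their genotype differences are descriptions with no test. Gjb2, connexin 26 of gap junctions, differed by 3.70 in epidermis, 2.87 in dermis and, for whole skin, 3.17. Tnc, tenascin C, a matrix protein of wounds, differed by 2.83, 2.34 and 2.74 in the same tissues. For Krt6a, a keratin of wounded epidermis, the differences were 4.89, 1.19 and 2.34.

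The relatives of the 9 genes, from lists written with earlier results of these data known, were tested between the genotypes in limma. Of all tested genes 2.38% passed in epidermis, 1.54% higher and 0.844% lower in transgenic mice. In dermis 0.0655% passed, all higher, and in whole skin 2.79%, 1.71% higher and 1.08% lower. Of 9 tested other S100 genes, none passed in epidermis or dermis, where 1 and 0 reached an unadjusted p under 0.05, and S100a16 rose in whole skin by 0.40 ± 0.06 (adjusted p = 0.0164). Their medians were 0.34, −0.12 and 0.10 in epidermis, dermis and whole skin. Of 10 tested other acute-phase genes none passed in any tissue. In epidermis 1 reached an unadjusted p under 0.05, Hamp, which was lower, at −1.68 ± 0.49. In dermis 3 and in whole skin 3 did so, all higher. The medians of the 10 were 0.12, 0.28 and 0.42 in epidermis, dermis and whole skin. Saa1, made mainly by the liver, stood at 2.44 ± 0.58 in whole skin (adjusted p = 0.0682), with 6.40, 4.77 and 4.18 on the transgenic arrays against 1.91, 2.91 and 3.22 on the wild-type arrays. The stefin Stfa2l1 rose by 2.96 ± 0.34 in epidermis (adjusted p = 0.00193) and by 2.61 ± 0.54 in whole skin (adjusted p = 0.0441), and the other tested stefin did not pass in any tissue. The 2 tested genes of the chitinase family and the 1 of the serpina3 family did not pass in any tissue. Among 6 tested C-type lectins of myeloid cells, Clec4n, the gene of dectin-2, rose in whole skin by 1.56 ± 0.12 (adjusted p = 0.00115). Clec4b1 stood on the other side there, at −1.02 ± 0.34 (adjusted p = 0.16), and at −1.57 in epidermis and −0.83 in dermis. The medians of the 6 were 0.39, 0.58 and 0.10 in epidermis, dermis and whole skin.

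Genes that act before and after the 9 were examined next. None of 11 tested receptors and signalling partners passed in any tissue in limma, with 5, 1 and 1 reaching an unadjusted p under 0.05 in epidermis, dermis and whole skin. Of these, Tlr4, the receptor of calprotectin, stood at 2.87 ± 0.88 in epidermis (adjusted p = 0.13), where all 3 wild-type values were dim, and at 0.03 ± 0.54 in dermis. Among 9 tested cytokines and receptors that induce acute-phase genes, Il6st, the shared gp130 receptor chain, fell in epidermis by 1.09 ± 0.24 (adjusted p = 0.0423), and Osmr, the oncostatin M receptor, rose in whole skin by 0.58 ± 0.12 (adjusted p = 0.048). Of 14 tested transcription factors and feedback genes, none passed in either layer, where 1 in epidermis and 2 in dermis reached an unadjusted p under 0.05. In whole skin 4 of the 14 rose. Cebpb and Cebpd, the C/EBP factors of the acute-phase response, rose by 0.67 ± 0.09 and 1.09 ± 0.14 (adjusted p = 0.0079 for both). Bcl3, a nuclear NF-kappaB partner, rose by 1.08 ± 0.18 (adjusted p = 0.0181), and Socs3, the feedback inhibitor of gp130 signals, by 1.03 ± 0.21 (adjusted p = 0.0428). The median of the 14 was 0.34 in whole skin, 0.15 in epidermis and 0.10 in dermis.

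Of 8 neutrophil attractants with a probe set here, Cxcl1 alone passed the filter on low signal. It rose in epidermis by 1.70 ± 0.39 (limma adjusted p = 0.0497) and in whole skin by 2.80 ± 0.59 (adjusted p = 0.0467). In dermis it stood at 3.48 ± 0.80 (adjusted p = 0.459), with 7.06, 10.37 and 9.95 on the transgenic arrays against 6.39, 5.86 and 4.69 on the wild-type arrays. Among 8 tested other antimicrobial proteins, 3 rose in epidermis. They were Slpi, an inhibitor of leukocyte elastase, by 4.37 ± 0.50 (adjusted p = 0.00193), and the beta-defensins Defb3, by 3.78 ± 0.53 (adjusted p = 0.00647), and Defb6, by 1.91 ± 0.38 (adjusted p = 0.0291). Defb3 also rose in whole skin, by 3.34 ± 0.68 (adjusted p = 0.0417), a call lost with 16 added before log2 (adjusted p = 0.0752). None of these genes passed in dermis. Defb3 was dim on all 3 arrays of wild-type epidermis, dermis and whole skin, so the sizes of its differences rest on dim values. Its place among the tested genes may rest on its transgenic arrays.

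Several of these calls depended on single arrays or on the fit. In a fit over all 18 arrays, none of the 20 whole skin calls among listed genes named by the rule passed, those of Clec4n, Cebpb and Cebpd included (adjusted p = 0.9998, 0.9998 and 0.529). Within the fit of each tissue, Stfa2l1 in epidermis, Slpi in epidermis, and Clec4n, Cebpb and Cebpd in whole skin passed with any 1 array of that tissue left out. Osmr and Socs3 in whole skin did not pass without any 1 of the 6 arrays (adjusted p up to 0.143). In whole skin, S100a16 and Bcl3 did not pass without wild-type replicate 1 or 3 or transgenic replicate 1 or 2 (adjusted p up to 0.0858), and Stfa2l1, Cxcl1 and Defb3 without any 1 array except transgenic replicate 3 (adjusted p up to 0.183). In epidermis, Il6st and Defb6 did not pass without any 1 array except wild-type replicate 2 (adjusted p up to 0.182), Cxcl1 without wild-type replicate 3 or any transgenic replicate (adjusted p up to 0.215), and Defb3 without transgenic replicate 1 or 2 (adjusted p up to 0.0567). Cebpb and Cxcl1 have further probe sets, and their mean over these did not pass (adjusted p = 0.0785 for Cebpb in whole skin, 0.172 and 0.0882 for Cxcl1 in epidermis and whole skin). With the mean of each gene's probe sets, 7 of the 20 whole skin calls were lost. Osmr, Socs3, Stfa2l1 and Defb3 were also among these (limma adjusted p between 0.0557 and 0.0692).

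**Figure D5:**
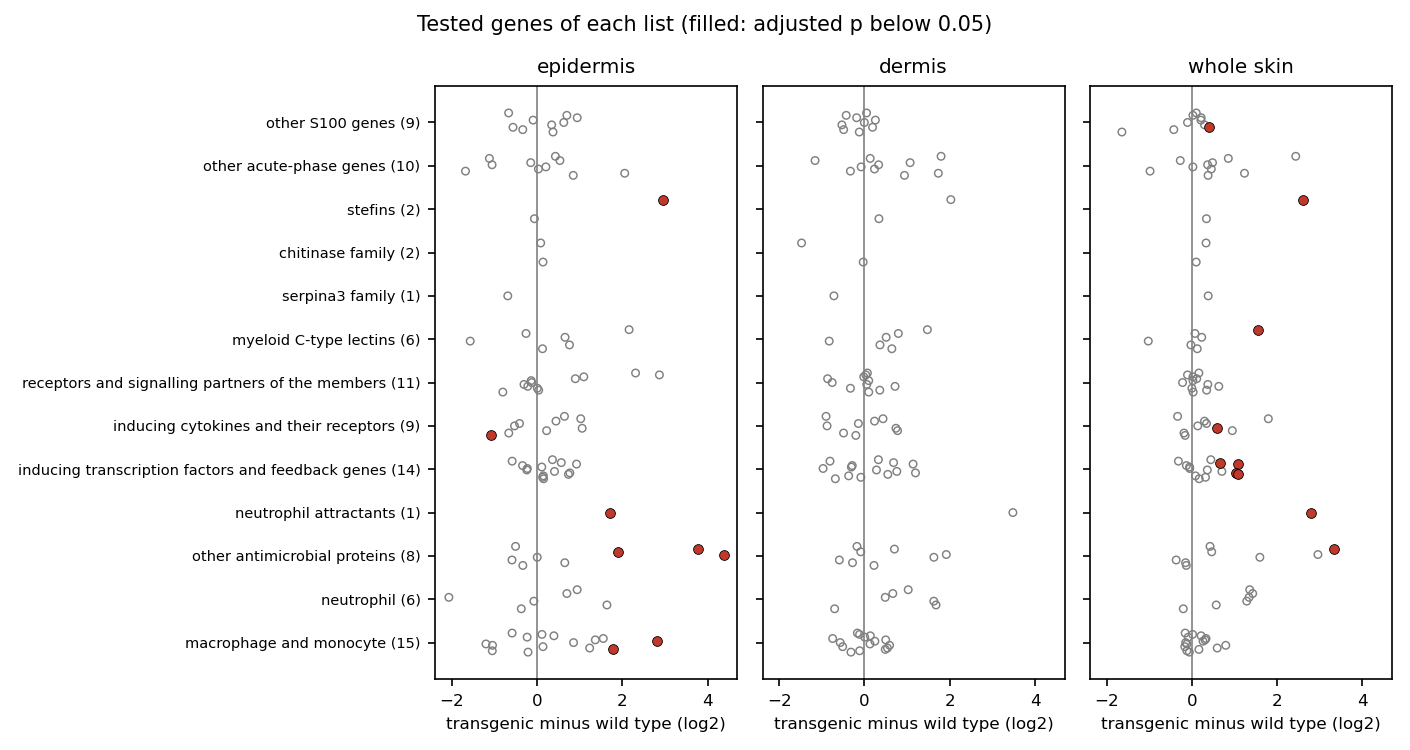
Transgenic minus wild-type mean log2 signal (horizontal axis) of each tested gene of 11 related lists and of the neutrophil and macrophage marker lists (rows, with the number tested), in epidermis, dermis and whole skin. Filled points passed in limma after adjustment over all tested genes, and no gene of these lists passed in dermis.

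Markers of the cells that could carry these transcripts were read beside them. Of 15 neutrophil markers with a probe set here, 6 passed the filter on low signal, and none of the 6 passed the test in any tissue in limma, with 1, 1 and 3 reaching an unadjusted p under 0.05 in epidermis, dermis and whole skin. Their medians were 0.31, 0.85 and 1.31. Of the 15, 6 were dim on all 3 arrays of transgenic epidermis and 4 on all 3 of wild-type epidermis. The counts were 4 in transgenic dermis and 9 in wild-type dermis, and 7 in transgenic whole skin and 10 in wild-type whole skin. Cd177, of neutrophil granules, was dim on all 3 arrays of every group, and Ltf, lactoferrin, in every group except wild-type epidermis. Elane, neutrophil elastase, Ctsg, Mmp8, Trem1 and Itgb2l were dim on all 3 arrays of wild-type dermis but not of transgenic dermis, and Csf3r, the G-CSF receptor, Mmp8 and Trem1 on all 3 of wild-type whole skin but not of transgenic whole skin. The summed linear signal of the 15 was 217 to 265 in transgenic epidermis and 152 to 362 in wild-type epidermis, which overlap. It was 213 to 300 in transgenic dermis and 132 to 180 in wild-type dermis, and 191 to 296 in transgenic whole skin and 89.2 to 169 in wild-type whole skin, neither of which overlap. That some of the 9 are called neutrophil proteins rests on their known roles, and the share of neutrophils in their signal was not tested.

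Macrophage and monocyte markers, all 15 of them tested, gave 2 calls, both in epidermis. C1qc, a complement subunit of macrophages, rose by 2.82 ± 0.64 (limma adjusted p = 0.0482) and Ctss, cathepsin S, by 1.78 ± 0.34 (adjusted p = 0.0251), and each call was lost without wild-type replicate 1 or 3 or transgenic replicate 1 or 2, that of C1qc also without transgenic replicate 3 (adjusted p up to 0.224). The summed signal of the 15 was 3940 to 5543 in transgenic epidermis and 1893 to 3910 in wild-type epidermis, with no overlap. It overlapped between the genotypes in dermis and in whole skin. Among 9 fibroblast markers, Pdgfrb rose in epidermis by 2.48 ± 0.33 (adjusted p = 0.00527), also with any 1 array left out. The median of these markers there was 0.77, with 4 higher and none lower at an unadjusted p under 0.05. Their summed signal was 8995 to 12988 in transgenic epidermis and 3932 to 9099 in wild-type epidermis, which overlap. The medians were 0.05 in dermis and −0.01 in whole skin. Lum was called lower in whole skin, a call lost without any 1 array except transgenic replicate 3. The part of these cells in the epidermal values of Saa3, Serpina3n and Clec4d was not tested.

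Keratinocyte markers were read in the same way. Of 9 basal markers, Krt15 fell in epidermis by 3.66 ± 0.36 (limma adjusted p = 0.000834) and Col17a1 by 1.19 ± 0.24 (adjusted p = 0.0304). The median of the basal markers there was −0.55, with 4 lower and none higher at an unadjusted p under 0.05. Their summed signal was 12329 to 12652 in transgenic epidermis against 17679 to 23278 in wild-type epidermis. In dermis it was 10919 to 12572 in transgenic mice against 14098 to 16628 in wild types, and neither pair overlapped. In whole skin the genotypes overlapped. Of 10 suprabasal markers, Flg, the filaggrin precursor, rose in epidermis by 2.90 ± 0.22 (adjusted p = 0.000353) and Casp14 by 2.54 ± 0.28 (adjusted p = 0.00169). The list did not rise as a whole: its median was −0.49, with 4 higher and 2 lower at an unadjusted p under 0.05. Its summed signal overlapped, at 31592 to 37996 in transgenic epidermis and 30039 to 48382 in wild-type epidermis. Casp14 did not pass with the mean of its probe sets (adjusted p = 0.125), and Col17a1 not without wild-type replicate 3 or any transgenic replicate (adjusted p up to 0.157). Immediate-early genes, which also respond to the handling of tissue, rose in epidermis for 2 of 10, Fos by 1.49 ± 0.29 (adjusted p = 0.0284) and Dusp1 by 1.08 ± 0.22 (adjusted p = 0.0308), and in whole skin for 6 of 10. Fos in epidermis did not pass without wild-type replicate 3 or any transgenic replicate (adjusted p up to 0.137). Their summed signal was 5935 to 6337 in transgenic epidermis against 3582 to 4162 in wild-type epidermis, 3342 to 3452 in transgenic dermis against 2534 to 2955 in wild-type dermis, and 4423 to 4504 in transgenic whole skin against 2725 to 2786 in wild-type whole skin. Their part in the levels of the 9 genes was not tested.

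In wild-type skin the lists also differed by layer. Of 10 tested acute-phase genes 4 were higher in dermis than in epidermis and none lower, where 12.6% of all tested genes were higher and 6.07% lower. They were Lbp by 3.37 ± 0.73, Hp by 2.80 ± 0.55, Cp by 2.73 ± 0.55 and Cfb by 2.59 ± 0.67 (limma adjusted p between 0.00333 and 0.0158). The call of Cfb, dim on 2 of the wild-type epidermis arrays, was lost without any 1 of 4 arrays, wild-type dermis replicates 2 and 3 and wild-type epidermis replicates 1 and 3 (adjusted p up to 0.0636). Others of the list stood below 0, such as Orm1 at −1.39 ± 0.68 (adjusted p = 0.166) and Saa2 at −0.94 ± 0.90 (adjusted p = 0.484).

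Stfa2l1 was lower in dermis, at −2.40 ± 0.66 (limma adjusted p = 0.0219), where all 3 wild-type values were dim. That call was lost without wild-type dermis replicate 2 or 3 or wild-type epidermis replicate 1 (adjusted p up to 0.091) and with 16 added before log2 (0.0707). Of 11 receptors and partners 4 were higher in dermis and none lower, against 12.6% and 6.07% of all tested genes. Among the 4 were Tlr4, by 4.87 ± 0.73 (adjusted p = 0.000617), and Tlr2, by 2.87 ± 0.55 (adjusted p = 0.00311). Both were dim on all 3 wild-type epidermis arrays, so the sizes of these differences rest on dim values. Among 9 inducing cytokines and receptors 2 were higher in dermis and 4 lower. Il6ra, the interleukin-6 receptor, stood at −1.68 ± 0.28 (adjusted p = 0.00119) and Il22ra1 at −1.85 ± 0.37 (adjusted p = 0.00413), and both passed with any 1 array left out. Il17rc, at −1.77 ± 0.45 (adjusted p = 0.0145), did not pass without any 1 of 3 arrays, wild-type dermis replicates 2 and 3 and wild-type epidermis replicate 1 (adjusted p up to 0.0711) or with the mean of its probe sets (0.0511). Il1a, at −3.79 ± 1.05 (adjusted p = 0.0231), was dim on all 3 wild-type dermis arrays and did not pass without wild-type replicate 2 or 3 of either layer (adjusted p up to 0.0933) or after quantile normalization (0.0572). Osmr was higher by 1.04 ± 0.27 (adjusted p = 0.0163), but not without wild-type dermis replicate 3 or wild-type epidermis replicate 1 (adjusted p up to 0.0774), and turned to −0.10 with the mean of all its probe sets. Il6st, higher by 0.85 ± 0.26 (adjusted p = 0.0379), did not pass without any 1 of 6 arrays, replicates 2 and 3 of wild-type dermis, wild-type epidermis and transgenic epidermis (adjusted p up to 0.13), nor with the mean of its probe sets (0.989).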

How the data were processed

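The authors deposited 1 table of log2 values of 18 Affymetrix arrays, made with MAS5 per the submitters' processing notes (version and settings: not given in the sources used here). Values ran from −7.52 to 14.42, and their linear mean, trimmed by 2% at each end, was 98.9 to 99.5 on every array, from which the log2 scale was read. They were used with no further normalization. Of 45037 probe sets, 34945 had 1 symbol in the platform annotation. For each of 18193 genes the probe set of highest mean was used, and the 13739 with a mean above the 30th percentile (3.15) were tested with limma 3.58.1 under R 4.3.3 (a mean per group, eBayes with a trend, Benjamini-Hochberg adjustment, threshold 0.05). Each tissue was fitted on its own 6 arrays and the layers on 12. The fits were tested on simulated data. No 2 arrays held the same values, and the number of arrays limits the precision.

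The members, gene lists and tests were chosen with earlier results of these data known. That 2610528A11Rik and Clec4d go untested between the wild-type layers was decided after their values were seen. Named genes are the 9, up to 4 tested genes per list with the smallest adjusted p in the genotype comparisons, and the 8 most like in pattern. Dusp1, Saa1, Tlr4, and genes named for the wild-type layers or as dim, were chosen after their values were seen. Alternatives were quantile normalization, a common 75th percentile, 16 added before log2, other filters, other uses of probe sets, a fit over all 18 arrays, a replicate block and each array left out.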

Additional observations from a re-analysis of the deposited data

Results flagged for a closer look

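Krt15, a keratin of basal and follicle stem cells on the basal marker list, showed a genotype effect that differed between the layers. The effect in dermis minus that in epidermis was 3.29 ± 0.49 on the log2 scale (limma interaction term, adjusted p = 0.0424), with −0.37 in dermis and −3.66 in epidermis. This was 1 of 3 genes that passed, 0.0218% of those tested, and the count was 0 after quantile normalization and without any 1 wild-type dermis array, among other settings. None of the 9 genes was tested in this way. Groups of 3 arrays are too small for the search for outlying samples.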

How the results depend on the processing

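The choice of the 9 genes fixed the direction of their differences between the genotypes. That direction was kept in all 270 alternative values, which supports nothing further. Among the 270, the mean of a gene's probe sets repeats the main value, since each of the 9 has 1 probe set. Of the 270, 256 moved by less than the spread between arrays. Of the 14 that moved further, 12 came from adding 16 before log2, which also lowered the median difference of the 9 to 2.15 (epidermis), 1.47 (dermis) and 2.59 (whole skin) and kept 4 of the 8 genes most like in pattern. With single arrays left out the median ranged from 3.56 to 4.55 in epidermis, 2.38 to 3.04 in dermis and 3.0 to 4.16 in whole skin, and the number of genes without overlap from 8 to 9, 7 to 9 and 9 to 9. Dim values numbered 29 at the 30th percentile and 17 at the 20th. Quantile normalization moved the median of all genes in epidermis to 0.05, against −0.10 as deposited. For the tests of 6 of the genes between wild-type layers, 119 of 126 alternatives gave the same call. Of the calls of listed genes named by the rule, 5 of 14 in epidermis, 0 of 20 in whole skin and 18 of 35 between wild-type layers held in every alternative.

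Counts over all genes moved more. In epidermis 327 genes passed, 1044 in the fit over all 18 arrays and 58 (without transgenic replicate 1) to 1385 (without wild-type replicate 2) with single arrays left out. In dermis the 9 became 38 over all 18 arrays and 2 (without wild-type or transgenic replicate 2) to 46 (without transgenic replicate 1). In whole skin the 384 became 240 with the mean of a gene's probe sets, 37 over all 18 arrays, where all 20 calls of listed genes named by the rule were lost, and 95 (without wild-type replicate 1) to 410 (without transgenic replicate 3). Between the wild-type layers the 2559 became 4359 with every probe set tested, 4035 over all 18 arrays and 1341 (without wild-type dermis replicate 3) to 3146 (without transgenic dermis replicate 1). The 3 genes with a different effect in the layers became 0 after quantile normalization and with every probe set tested, 5 with a common 75th percentile, 9 with 16 added, 7 with the mean of probe sets, 42 over all 18 arrays and 0 (among others without any 1 wild-type dermis array) to 54 (without transgenic dermis replicate 1). The fit over all arrays shares 1 spread among tissues whose spreads differ, and leaving out an array leaves fewer samples; other causes were not tested. For Osmr the difference between wild-type layers reversed to −0.10 with the mean of its probe sets.

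Same-numbered arrays of the genotypes share only a number: their deviations correlated between −0.34 and 0.04 in epidermis, −0.32 and −0.10 in dermis and −0.16 and 0.13 in whole skin. A replicate block gave 114 genes in epidermis, 7 in dermis, 251 in whole skin, 2129 between wild-type layers and 1 for the difference between layers.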

Other observations

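Genes of the lists that were too dim to be tested, named here after their values were seen, showed further differences without a test. Cxcl2, a neutrophil attractant, read 8.07, 7.25 and 3.90 on the transgenic whole skin arrays, against 2.11, 1.03 and −1.42 on the wild-type whole skin arrays. In epidermis Cxcl2 read 6.42, 5.54 and 3.15 in transgenic mice and −0.16, 1.35 and 2.45 in wild types, and in dermis 3.0, 4.47 and 4.74 in transgenic mice and 0.59, −1.28 and 2.40 in wild types. The arrays of the genotypes did not overlap in any of the 3 tissues, and as for most of the 9 genes the third transgenic array was lowest in epidermis and whole skin. Cxcl5, another attractant, read 3.32, 6.22 and 6.20 in transgenic dermis, against −1.08, 1.31 and 1.24 in wild-type dermis, and overlapped between the genotypes in epidermis and whole skin. Il6, the cytokine that drives the acute-phase response, read 2.68, 4.68 and 5.57 in transgenic dermis, 1 of them dim, against 2.14, 2.47 and 1.31 in wild-type dermis, all dim. In epidermis Il6 stood on the other side, at −0.51, 0.15 and 1.95 in transgenic mice and 2.0, 2.26 and 2.71 in wild types, where all 6 values were dim. In whole skin Il6 read 4.61, 2.90 and 2.17 in transgenic mice, 2 of them dim, against 1.07, 0.56 and 0.92 in wild types, all dim, with no overlap. Tnf and Csf2, also of the cytokine list, were lower in transgenic dermis with no overlap. Tnf read 1.12, −1.05 and 1.69 there, against 2.97, 2.69 and 2.92 in wild-type dermis, all dim. Csf2 read 3.12, 2.96 and 0.77 in transgenic dermis, 2 of them dim, against 3.93, 4.06 and 3.55 in wild-type dermis. In epidermis both were higher in transgenic mice with no overlap. Tnf read 2.91, 5.04 and 3.64 there, against −0.02, −0.81 and 0.47 in wild-type epidermis, all dim. Csf2 read 2.70, 4.01 and 2.87 in transgenic epidermis, 2 of them dim, against 1.19, 2.62 and 1.53 in wild-type epidermis, all dim. Il17a was dim on all 3 arrays of transgenic epidermis, dermis and whole skin.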
